A study of Mus musculus with 6 samples.

Results

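Septins are GTP-binding cytoskeletal proteins that join end to end into filaments and rings. Here the 10 septin genes Sept2, Sept4, Sept5, Sept6, Sept7, Sept8, Sept9, Sept10, Sept11 and Sept12 were taken by gene name from the 44065 genes of a deposited table, and all 10 passed the filter on low values that left 19201 genes. They were chosen by gene name, with no threshold, when FPKM differences between the same sedentary and control libraries were already known, so every difference between the groups in these 10 genes is a description and supports nothing by itself. The table also holds Sept1, Sept3 and Sept14, which the choice by name left out. Total testis RNA, with ribosomal RNA removed before sequencing, came from 3 sedentary and 3 control male C57BL/6 mice, which entered the exposure at 6 weeks of age and stayed in it for 10 weeks. The labels call the 3 animals of a group biological replicates and do not say how the sedentary state was produced. A further group of the design, with physical activity as compensation, was not analysed here.

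A septin filament is built from subunits of 4 sequence groups, named after SEPT2, SEPT3, SEPT6 and SEPT7, and members of a group can often replace each other at the same position. In dividing cells septins gather at the cleavage furrow, and at the base of cilia they help to bound the ciliary membrane. In sperm they form the annulus, a ring where the mitochondria-bearing midpiece of the tail meets the principal piece. Mice that lack Sept4 make sperm without an annulus and are infertile, and Sept12 is a testis-enriched septin of the same ring.

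The libraries held between 28495596 and 38148228 recovered reads. FPKM, or mapped fragments scaled for gene length and sequencing depth, summed to between 423614 and 434757 in sedentary libraries and to between 385759 and 413388 in control libraries, so the same gene share gives a higher FPKM in sedentary testes. Levels were therefore also read as TPM, in which every library has the same sum. The tissue label was matched by its markers: summed FPKM of 11 genes of elongating spermatids, the late stage that shapes the tail, ran from 32046 to 34546 in sedentary libraries and from 24883 to 29571 in control libraries. In bulk testis RNA, fewer cells of a type and less RNA per cell cannot be told apart.

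The septin levels spanned a wide range, and Sept12 stood far above the others. Averaged over the 6 libraries, the order per length was Sept12, Sept10, Sept5, Sept4, Sept7, Sept2, Sept9, Sept6, Sept8 and Sept11. Each gene lay above the next in this order within 6 of 6 libraries. The values of Sept5 and Sept4, and those of Sept8 and Sept11, overlapped across libraries, while the other 7 neighbouring pairs did not. Sept12 exceeded Sept10 by 2.38-fold and lay at percentile 96.6 of the mean FPKM of tested genes, whereas Sept8 and Sept11 lay at percentiles 21.9 and 8.56.

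**Figure D1:**
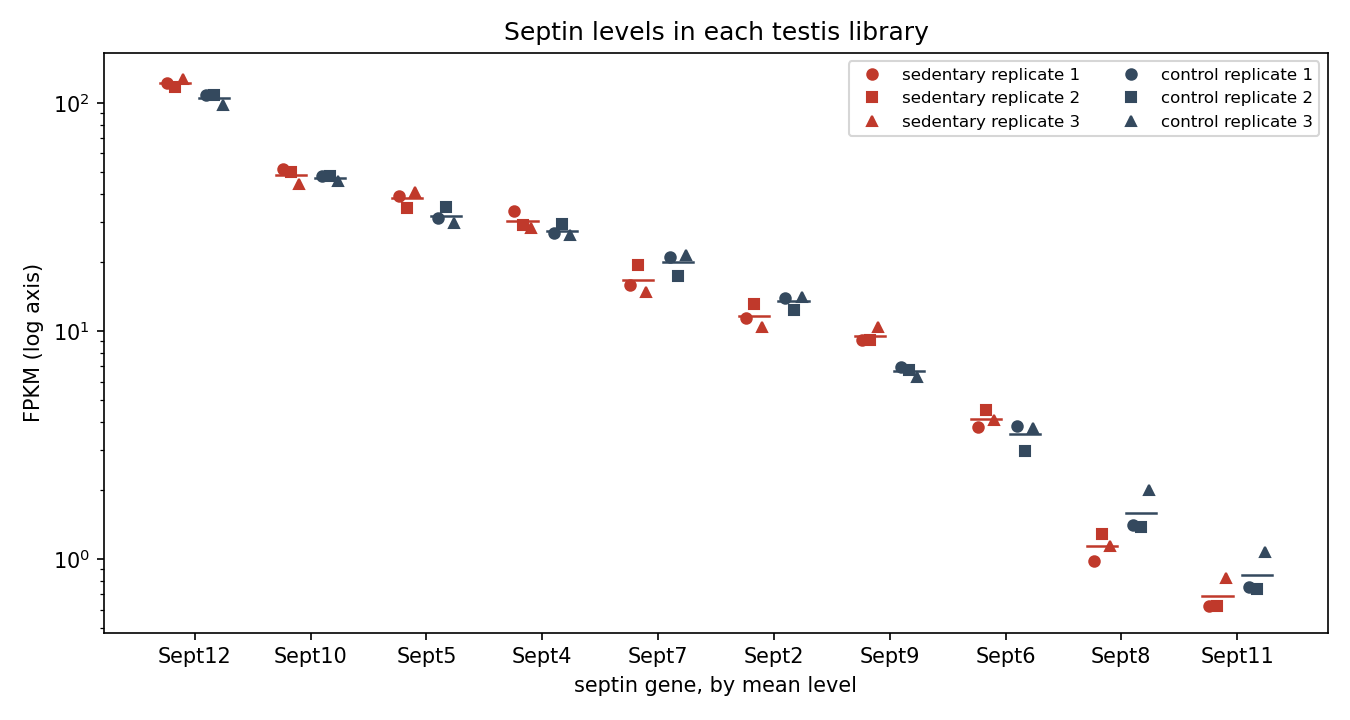
FPKM of the 10 septins in each library on a log axis, ordered by mean level, with sedentary libraries in red left of control libraries in dark blue; horizontal lines are group means. Sept12 is highest in every library, and the groups stand apart in Sept12 and Sept9, where sedentary libraries are higher, and in Sept8, where they are lower; groups do not overlap in 24.5% of all tested genes either.

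The promoter windows of the septins differ in composition. RefSeq windows of 300 bases, from 250 before to 50 after a transcript start on build GRCm38.p6, were matched to 8 of the 10 genes by symbol, with 18 windows in all; none was matched for Sept5 and Sept6. The windows of Sept12, Sept10 and Sept2 are shown, the first from a testis-enriched septin and the others with many CG dinucleotides. Each is written 5′ to 3′ along the gene, and the capitals mark CG dinucleotides.
Sept12, chr16:4997803-4998102, minus strand: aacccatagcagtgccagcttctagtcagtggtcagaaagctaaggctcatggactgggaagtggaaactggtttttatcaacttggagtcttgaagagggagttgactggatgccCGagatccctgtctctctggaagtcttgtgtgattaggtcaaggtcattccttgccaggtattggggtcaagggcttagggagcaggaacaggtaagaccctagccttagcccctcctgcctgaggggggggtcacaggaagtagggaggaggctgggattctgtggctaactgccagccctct
Sept10, chr10:59221451-59221750, minus strand: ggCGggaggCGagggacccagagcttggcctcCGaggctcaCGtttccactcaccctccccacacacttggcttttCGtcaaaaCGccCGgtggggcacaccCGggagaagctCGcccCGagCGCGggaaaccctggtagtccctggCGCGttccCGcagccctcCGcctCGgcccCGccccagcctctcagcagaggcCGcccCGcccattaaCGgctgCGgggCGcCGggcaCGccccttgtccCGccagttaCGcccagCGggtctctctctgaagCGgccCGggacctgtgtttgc
Sept2, chr1:93478743-93479042, plus strand: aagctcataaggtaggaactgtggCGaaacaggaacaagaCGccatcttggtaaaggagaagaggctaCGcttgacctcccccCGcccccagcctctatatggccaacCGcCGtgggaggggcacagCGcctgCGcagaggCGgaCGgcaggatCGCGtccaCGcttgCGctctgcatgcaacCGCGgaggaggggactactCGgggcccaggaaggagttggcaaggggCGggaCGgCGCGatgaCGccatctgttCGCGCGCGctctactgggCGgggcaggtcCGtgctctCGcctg

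The Sept12 window holds 1 CG and the second Sept12 start, which overlaps it, holds 2. The windows of Sept10 and Sept2 hold 30 and 29, and the median of all 32851 windows in the RefSeq table is 7. The second Sept2 window holds 36, and that of Sept11 holds 25. Those of Sept7 hold 14 and 43, those of Sept8 18 and 38, and those of Sept9 31, 18, 15 and 5. Of all windows, 14.1% have 1 CG or fewer. The farthest upstream Sept4 start also has 1 CG, and the other 3 Sept4 starts have between 5 and 13, but gene-level values do not show which start was used. On both strands, the cAMP response element TGACGTCA was in 0 of the 18 septin windows and in 1.79% of all windows. The letters GTTGCC, one arm of the X-box bound by RFX factors, were in 2 overlapping Sept4 windows and in 12.5% of all windows, and CCAAT was in both Sept12 windows, 1 Sept4 window, 1 Sept9 window and 37.4% of all windows. These matches describe letters in the windows only.

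Sept12 (MGP_C57BL6NJ_G0022895, chromosome 16, bases 1594325 to 1605307, minus strand; coordinates are those of the deposited table, whose build is not settled) had 122.6, 117.9 and 126.8 FPKM in sedentary testes, against 107.9, 108.8 and 97.4 FPKM in control testes. All 3 sedentary libraries lay above all 3 control libraries. The means were 122.4 ± 4.45 and 104.7 ± 6.33 FPKM (SD, n = 3 each), with a log2 fold change of 0.23 (SE 0.07). As TPM the groups nearly met, at 282.0, 278.3 and 296.8 TPM in sedentary testes and 278.0, 263.2 and 252.5 TPM in control testes, and the log2 fold change was 0.11.

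Sept4 (MGP_C57BL6NJ_G0019298, chromosome 11, bases 91896981 to 91922965, plus strand), the other annulus septin, had 33.5, 29.0 and 28.2 FPKM in sedentary testes, against 26.9, 29.4 and 26.2 FPKM in control testes. The groups overlapped, and sedentary replicate 1 was highest. The log2 fold change was 0.13 (SE 0.09), 0.02 as TPM and 0.06 without sedentary replicate 1. The Sept4 model overlaps Gm11492, with a mean of 39.4 FPKM over the 6 libraries, on the same strand at its start, so reads there may be shared. Sept12 exceeded Sept4 by 3.66-fold, 4.06-fold and 4.50-fold in sedentary libraries and by 4.01-fold, 3.71-fold and 3.72-fold in control libraries, and these ratios overlapped between the groups. The mean log2 level of Sept4 and Sept12 minus that of the other 8 septins was 2.81 ± 0.11 in sedentary testes and 2.63 ± 0.15 in control testes (SD, n = 3 each). Control replicate 2, at 2.78, lay above sedentary replicate 2, at 2.70, so the groups overlapped.

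Sept9 (MGP_C57BL6NJ_G0019838, chromosome 11, bases 125128960 to 125315782, plus strand), which extends septin hexamers to octamers and acts in the last step of cell division, had the log2 fold change farthest from 0 among the 10 on the FPKM scale; as TPM that of Sept8 was farther, at -0.52. It had 9.09, 9.17 and 10.4 FPKM in sedentary testes, against 6.97, 6.71 and 6.25 FPKM in control testes. The sedentary libraries were all higher, with 7061 reads over the 3 of them and 4740 over the 3 control libraries. The log2 fold change was 0.49 (SE 0.09), and it was 0.39 as TPM. As TPM the sedentary libraries had 20.9, 21.6 and 24.3 and the control libraries 18.0, 16.2 and 16.2, so the groups stood apart on that scale too.

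Of the genes counted in the SEPT2 group, Sept5, known for its part in vesicle release in neurons and platelets, had 39.0, 34.7 and 40.6 FPKM in sedentary testes and 31.3, 35.0 and 29.7 FPKM in control testes. Control replicate 2 lay just above sedentary replicate 2, so the groups overlapped, with a log2 fold change of 0.25 (SE 0.09) that was 0.14 as TPM. Its model overlaps Gp1bb, a platelet receptor gene downstream on the same strand with a mean of 3.78 FPKM over the 6 libraries. Sept2, a septin of the cleavage furrow and the base of cilia, had 11.4, 13.2 and 10.4 FPKM in sedentary testes and 13.9, 12.4 and 14.1 FPKM in control testes. Those groups also overlapped, with a log2 fold change of -0.20 (SE 0.10) that was -0.32 as TPM and -0.13 without sedentary replicate 3.

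Sept7, the core subunit that pairs with the other groups in most filaments, had 15.9, 19.5 and 14.8 FPKM in sedentary testes and 21.1, 17.4 and 21.6 FPKM in control testes. Sedentary replicate 2 exceeded control replicate 2, so the groups overlapped, and the log2 fold change was -0.26 (SE 0.12), or -0.37 as TPM.

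The SEPT6 group was led by Sept10, with 51.5, 49.8 and 44.2 FPKM in sedentary testes and 47.7, 48.0 and 45.2 FPKM in control testes. These were nearly level, with a log2 fold change of 0.04 (SE 0.08) that came to -0.07 as TPM, -0.04 with quantile normalization and -0.0017 without sedentary replicate 1. Sept6, on the X chromosome, had 3.80, 4.50 and 4.07 FPKM in sedentary testes and 3.84, 2.96 and 3.77 FPKM in control testes, with overlap at sedentary replicate 1 and a log2 fold change of 0.21 (SE 0.12). This value was 0.10 without control replicate 2 and 0.11 as TPM.

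Sept8 and Sept11 were the lowest members. Sept8 had 0.975, 1.29 and 1.14 FPKM in sedentary testes, against 1.40, 1.38 and 2.01 FPKM in control testes. All sedentary libraries were lower, on 730 reads in sedentary and 980 in control testes, with a log2 fold change of -0.35 (SE 0.16) that was -0.22 without control replicate 3, -0.52 as TPM, -0.47 with limma's voom on the recovered reads and down to -0.57 with voom without sedentary replicate 2. Sept11 had 0.621, 0.623 and 0.826 FPKM in sedentary testes and 0.752, 0.738 and 1.07 FPKM in control testes. These overlapped, with a log2 fold change of -0.18 (SE 0.16) that was -0.07 without control replicate 3, -0.33 as TPM, -0.30 with voom and down to -0.43 with voom without sedentary replicate 3. Both genes peaked in control replicate 3, but so did Sept2 and Sept7, at 14.1 and 21.6 FPKM, so this peak is not particular to them. Summed FPKM of 8 fibroblast markers was 32.7, 37.1 and 40.8 in sedentary libraries and 45.1, 43.5 and 67.0 in control libraries, also highest in control replicate 3, and 0 of the 8 were at 0 FPKM in all libraries. The Leydig, macrophage and endothelial marker sums, at 1886, 42.4 and 5.25 FPKM in control replicate 3, were also highest in that library. The peritubular and blood marker sums, at 303 and 10.9 FPKM in control replicate 3, were not. The peritubular sum was highest in sedentary replicate 1, at 330 FPKM, and the blood sum in sedentary replicate 3, at 11.4 FPKM. The part of these cells in the values of Sept8 and Sept11 was not tested.

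In limma's moderated test on log2(FPKM + 0.5), two-sided with Benjamini-Hochberg adjustment over all tested genes, 0 of the 10 septins passed an adjusted p of 0.05, beside 0.026% of all tested genes, and their adjusted p ran from 0.178 for Sept9 to 0.810 for Sept10. At an unadjusted p under 0.05 stood 3 of 10, Sept9, Sept12 and Sept5, beside 17.4% of all genes. With limma's voom on the recovered reads 1 of 10 passed, beside 1.44% of all genes: Sept9, at an adjusted p of 0.0153, which was 0.0557 without control replicate 3 and 0.0770 without sedentary replicate 3. Groups did not overlap in 3 of 10 septins, 2 higher and 1 lower, beside 24.5% of all genes. The median log2 fold change of the 10 was 0.09, with 6 above 0, beside 0.01 for all tested genes, of which 52.2% lay above 0. As TPM it was -0.03, beside -0.09 for all genes. With results of this contrast known when the genes were picked, nothing is read from these counts.

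**Figure D2:**
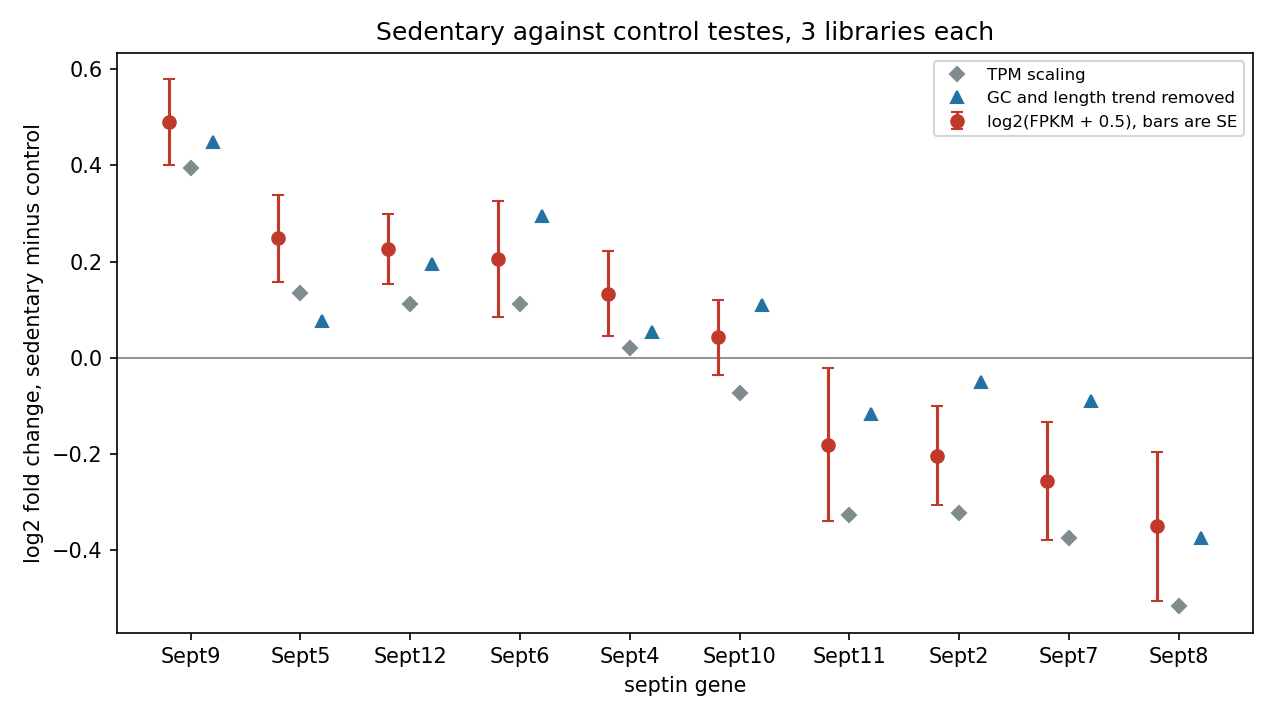
Log2 fold change of each septin, sedentary minus control (3 libraries each): red circles with SE bars on log2(FPKM + 0.5), grey diamonds after TPM scaling, blue triangles after each library's trend with GC content and gene length was removed. Sept9 is highest on all 3 scales and Sept8 lowest, while Sept2, Sept5 and Sept7 come close to 0 once the trend is removed.

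Base composition differed between the septins, and each library had its own trend with it. Sept7 and Sept2 have the lowest GC content of the 10, 35.7% and 40.6% of the longest GENCODE M21 transcript, and Sept5 the highest, 61.2%. Over the 14504 tested genes with a GC value, the slope of a library's log2 level on GC content, relative to the mean of all 6 libraries, was 0.07, -0.04 and 0.19 per 10 percentage points in sedentary replicates 1, 2 and 3, and -0.07, -0.02 and -0.14 in control replicates 1, 2 and 3. Ranked by this slope, the 6 libraries stood in exactly the order of their Sept5 levels, and in exactly the reverse order of their Sept2 and Sept7 levels. Sept12, with a GC content of 49.8%, kept the same order except that sedentary replicate 2 and control replicate 2 changed places. The highest slopes were in sedentary and the lowest in control libraries, so with 6 libraries trend and group cannot be told apart. The part of GC content in these levels was not tested. After a trend on GC content and gene length was removed from each library, the log2 fold changes of Sept5, Sept2 and Sept7 were 0.08, -0.05 and -0.09. Those of Sept9, Sept12 and Sept8 were 0.45, 0.19 and -0.37 after removal, against 0.49, 0.23 and -0.35 before it. Sept6 stood at 0.30 after removal, Sept10 at 0.11, Sept4 at 0.05 and Sept11 at -0.12. All 10 septins had a GC value, but only 75.5% of tested genes did. Over those genes the median log2 fold change after removal was 0.02, beside 0.06 for the 10 septins. That median does not cover the tested genes without a GC value.

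**Figure D3:**
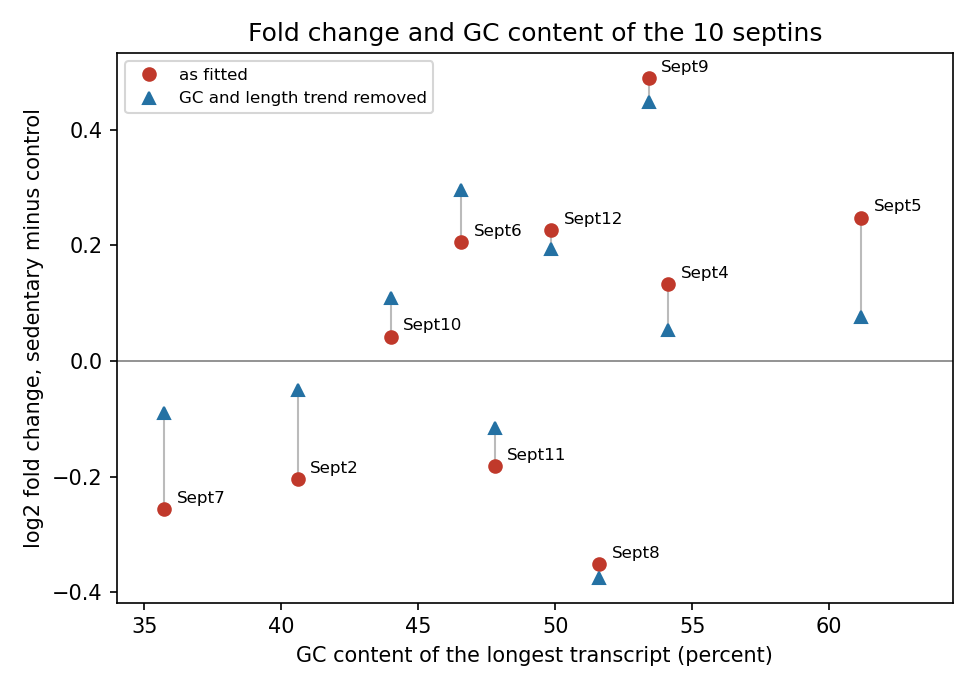
Log2 fold change of the 10 septins (sedentary minus control) against GC content of the longest transcript, as fitted (red circles) and with the trend of each library on GC and length taken out (blue triangles), joined by a line for each gene. The values at either end of the GC axis, Sept7, Sept2 and Sept5, shrink towards 0, and those of Sept9 and Sept8 hardly move.

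Summed over all 13 septins of the table, the level was 296.8, 287.5 and 288.8 FPKM in sedentary testes and 270.0, 271.3 and 258.7 FPKM in control testes. All sedentary libraries were higher, but as TPM the sums were 683, 679 and 676 in sedentary testes and 696, 656 and 671 in control testes, and the groups overlapped. Within the sum, the SEPT3 group of Sept3, Sept9 and Sept12 took 46.8% ± 1.80 in sedentary and 43.4% ± 1.49 in control testes (SD, n = 3 each), without overlap. Sept7 took 5.75% ± 0.897 in sedentary and 7.52% ± 0.990 in control testes, with overlap. The SEPT2 group had 27.6% ± 0.747 and 27.6% ± 0.860, and the SEPT6 group 19.8% ± 1.25 and 21.5% ± 1.05, in sedentary and control testes in that order. These shares do not depend on the scaling of a library, but the library trends with GC content and gene length were not removed from them. With those trends removed, the log2 fold change of Sept7 was -0.09, against -0.26 before, and that of Sept12 was 0.19, against 0.23. The part of those trends in the shares was not tested. Most of the SEPT3 group was Sept12, which alone took 42.1% ± 1.60 in sedentary and 39.2% ± 1.37 in control testes.

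**Figure D4:**
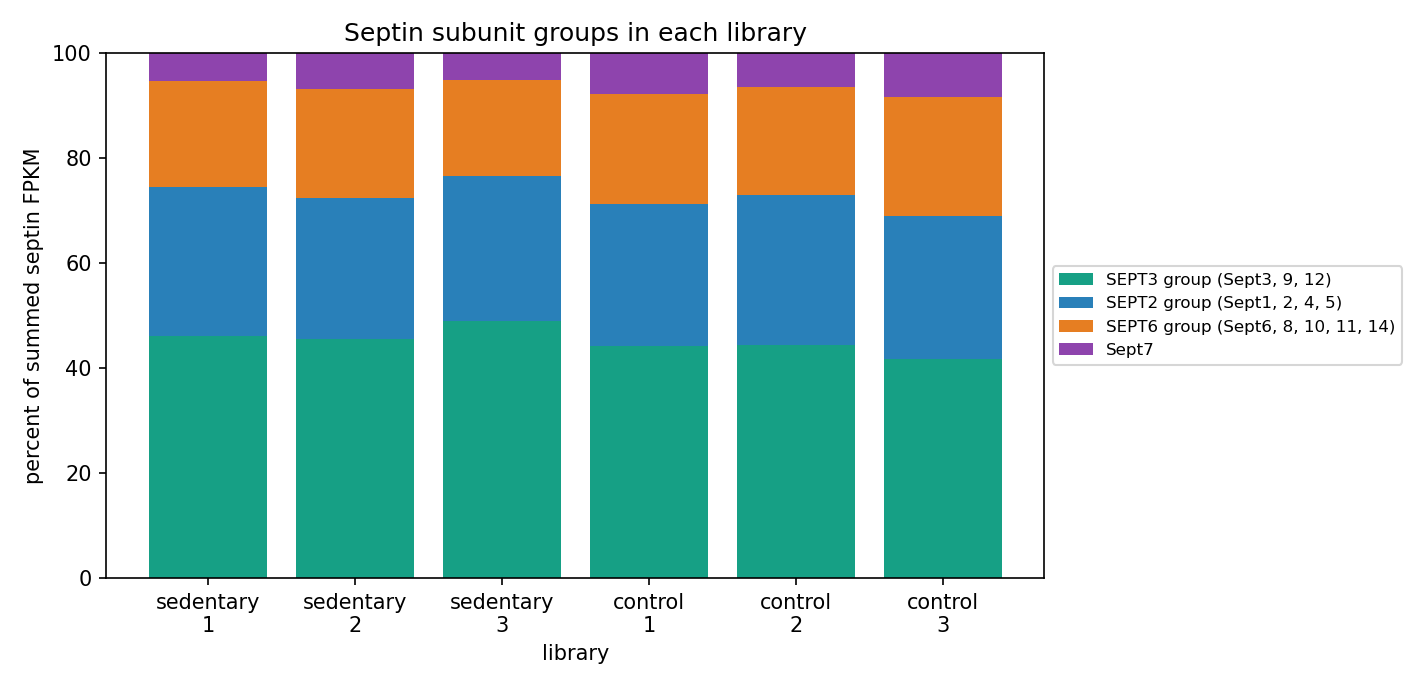
Share of each septin subunit group in the summed FPKM of all 13 septins, as stacked bars that add to 100% for each library, sedentary libraries on the left. The SEPT3 group takes 45.6% to 48.9% in sedentary and 41.7% to 44.3% in control libraries.

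Of the 3 septins outside the chosen names, Sept3, a neuronal septin, had a log2 fold change of -0.08 (SE 0.11), with 5.03, 3.90 and 4.04 FPKM in sedentary testes and 4.69, 4.77 and 4.28 FPKM in control testes. Sept14 had 3.05, 3.47 and 2.80 FPKM in sedentary testes and 3.14, 3.05 and 6.54 FPKM in control testes. Control replicate 3 stood apart there, and without it the log2 fold change of -0.32 (SE 0.25) came to 0.00. Sept1 averaged 0.462 and 0.544 FPKM in sedentary and control testes and did not pass the filter.

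Genes tied to the annulus and to septin 12 gave small differences. Of 9 such genes, 9 were tested. Limma's adjusted p of 0.05 was passed by 0 (0.026% of all genes), and voom's by 0 (1.44% of all genes). An unadjusted p under 0.05 was found in 2 (17.4% of all genes), and 8 lay above 0 (52.2% of all genes). The median log2 fold change was 0.19, beside 0.01 for all genes. With the GC and length trend removed the median was 0.08, beside 0.02 for tested genes with a GC value. Slc26a8, an anion transporter of the annulus that is lost with it in mice, had 54.0, 53.1 and 51.1 FPKM in sedentary testes and 46.4, 47.2 and 44.7 FPKM in control testes. All sedentary libraries were higher, with a log2 fold change of 0.19 (SE 0.06) and an adjusted p of 0.220. The log2 fold change of Slc26a8 was 0.08 as TPM, 0.11 with quantile normalization and 0.18 with the GC and length trend removed. Cby3, which helps to place the annulus in mice, had 32.7, 32.4 and 40.1 FPKM in sedentary testes and 26.1, 28.5 and 26.8 FPKM in control testes. Its groups did not overlap either, with a log2 fold change of 0.36 (SE 0.10), an adjusted p of 0.205, and 0.17 once the GC and length trend was removed. Groups did not overlap in 2 of the 9 annulus genes, both higher, beside 24.5% of all genes. Dnajb13, a co-chaperone found at the annulus and axoneme, and Fam92a, a membrane-curving partner of Cby3, had log2 fold changes of 0.04 and 0.0039, which came to -0.07 and -0.11 as TPM, and Fam92b had 0.22. Spag4, Lmnb1, Lmnb2 and Ndc1, proteins of the nuclear envelope named as partners of SEPT12, had 0.14, 0.22, 0.19 and -0.17.

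The Borg proteins, effectors of the GTPase Cdc42 that bind and bundle septins, showed no common direction. Cdc42 and 4 Borg genes were tested, and 0 passed limma on FPKM or voom, beside 0.026% and 1.44% of all genes. An unadjusted p under 0.05 was found in 0, beside 17.4% of all genes. Above 0 lay 2, beside 52.2% of all genes, with a median of -0.03, beside 0.01. Cdc42ep3 was the most abundant Borg gene, with 64.2, 68.6 and 60.6 FPKM in sedentary testes and 71.3, 65.4 and 61.4 FPKM in control testes, a log2 fold change of -0.03 (SE 0.08) with overlapping groups. Cdc42 itself had -0.04 (0.06 with the GC and length trend removed), Cdc42ep4 0.12 (-0.0072 with it removed), Cdc42ep1 -0.23 and Cdc42ep2 0.13.

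Genes of the cytokinetic ring, the setting in which septins act in most dividing cells, had a median of -0.09. With the GC and length trend removed the median of this list was 0.0034, beside 0.02 for tested genes with a GC value. Above 0 lay 5 of 14, beside 52.2% of all genes, and 2 had an unadjusted p under 0.05, beside 17.4%. Limma on FPKM and voom gave 0 calls, beside 0.026% and 1.44% of all genes. Groups stood apart in 2 of the 14 higher and 3 lower, beside 13.7% and 10.8% of all genes. Anln, the anillin scaffold that brings septins to the furrow, is described for its role and was chosen after its values were seen. It had 6.72, 7.46 and 6.71 FPKM in sedentary testes and 7.79, 7.89 and 7.53 FPKM in control testes. Its sedentary libraries were all lower, with a log2 fold change of -0.14 (SE 0.08), an adjusted p of 0.395, and -0.07 once the GC and length trend was removed. Rock1 and Rock2, kinases that drive ring contraction, had -0.42 and -0.39, with adjusted p of 0.207 and 0.240 by limma, and -0.28 and -0.24 after that removal. Aurkb, a kinase of the midzone, had 0.22 with an adjusted p of 0.336.

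Other structural genes of the spermatid are set beside the septins. Tail sheath, dense fibre and tektin genes had 12 of 15 above 0, beside 52.2% of all genes, with a median of 0.20. Limma on FPKM and voom called 0 of them, beside 0.026% and 1.44% of all genes. At an unadjusted p under 0.05 stood 6, beside 17.4% of all genes. Odf2, an outer dense fibre protein, averaged 540.2 and 453.9 FPKM in sedentary and control testes, a log2 fold change of 0.25 with an adjusted p of 0.208, and Odf4 averaged 196.0 and 166.9 FPKM, 0.23 with 0.219. Testis actin-related genes had 6 of 8 above 0, beside 52.2% of all genes, with a median of 0.10. Calls were 0 in both fits, beside the same 0.026% and 1.44%. Only 1 of the 8 had an unadjusted p under 0.05, beside 17.4% of all genes: Actrt2, with a log2 fold change of 0.32. As TPM the medians of the annulus, tail and actin-related lists were 0.08, 0.09 and -0.01, beside -0.09 for all genes.

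Among the marker lists, those of late spermatids and Sertoli cells lay above 0 and those of stromal and Leydig cells below. The elongating spermatid list had 11 of 11 above 0 with a median of 0.25, and the Sertoli list had 12 of 12 with a median of 0.29 and summed FPKM of 820 to 941 in sedentary and 661 to 724 in control libraries. Round spermatid, spermatocyte and spermatogonial lists had 5 of 10, 3 of 11 and 6 of 10 above 0, with medians of -0.02, -0.12 and 0.03. Leydig, peritubular and fibroblast lists had 1 of 10, 1 of 8 and 0 of 8 above 0, with medians of -0.32, -0.41 and -0.40. Macrophage, endothelial and blood lists had 4 of 7, 1 of 4 and 2 of 2 above 0, with medians of 0.08, -0.08 and 0.35. Among all tested genes 52.2% lay above 0, with a median of 0.01. As TPM the elongating spermatid and Sertoli medians were 0.14 and 0.18, beside -0.09 for all genes. With quantile normalization they were 0.05 and 0.23, beside 0.01 for all genes. That method keeps only the order of genes within a library, so a gene whose place is unchanged cannot differ between groups. Prm1, Prm2 and Tnp2, all above percentile 99.98 of mean FPKM, came to -0.085, -1.8e-15 and 0.085, against 0.21, 0.34 and 0.43 before. The value of 0.05 therefore cannot show how far the elongating spermatid difference depends on scaling. The spermatogonial and macrophage medians came to -0.07 and -0.02 as TPM. In each of these lists 0 genes passed limma on FPKM, beside 0.026% of all genes. With voom, 2 elongating spermatid, 2 Sertoli, 2 fibroblast, 1 spermatocyte and 1 Leydig gene passed, beside 1.44% of all genes. In each list, 0 of the genes found in the table were at 0 FPKM in all libraries. The part of any of these cell types in the septin values was not tested.

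By likeness over the 6 libraries, measured as Pearson's r of log2(FPKM + 0.5) among 139 listed genes that are no septins, Sept12 was closest to Odf4 (0.98), Ccna1 (0.97) and Amhr2 (0.97), and Sept4 to Tekt2 (0.94), Tekt3 (0.92) and Gfra1 (0.89). These values include the difference between the groups and the library trends above, and with 6 libraries high values arise readily among 139 genes.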

How the data were processed

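The authors deposited 1 table of FPKM values per gene for 6 libraries, with gene names, gene model lengths in bases and other columns (per the file headers); 1 line had been emptied and is not used here. HISAT2, StringTie and DESeq2, and the builds mm10 and mm39, are named per the submitters' processing notes, with no role or version. Multiplied by gene length, 100% of FPKM values were whole multiples of a library's step, within a tolerance of 0.001, which gave whole reads; both mates of a pair appear to be counted, so reads are not independent molecules. Counting noise did not account for the differences between replicates of a group (chi-square per degree of freedom of 4.11 or more).

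Groups were compared with limma (eBayes with an intensity trend) on log2(FPKM + 0.5) values, over genes with at least 0.5 FPKM in 3 of 6 libraries (R 4.3.3, limma 3.58.1). Fold changes on that scale understate low genes. The alternatives were other pseudocounts, filters and scalings, array weights, limma's voom on recovered reads, a replicate block and fits without each library; removal of GC and length trends and voom fits without each library were added after the data were seen. Both limma fits were tested on simulated data, where the fit on FPKM missed most changes in genes of low level; its pass mark was lowered after that result was seen and now covers genes of high level only. Members and lists were chosen with earlier results of these data known. Named genes were all septins, all annulus and Borg genes, up to 3 genes of the lowest p from each other list, and the 3 most alike to Sept4 and Sept12; the text describes part of them, and Anln outside this rule.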

Additional observations from a re-analysis of the deposited data

How the results depend on the processing

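Of 219 log2 fold changes of the 10 septins under 22 alternatives, 206 moved by less than the spread between replicates and 13 by more. The sign turned in 4, all in Sept10. The genes passing limma's threshold, 5 in the report, were 1 with no filter, 3 at 1 FPKM, 16 with array weights (2 higher) and 277 with voom (61 higher). They were 0 with the replicate block, with 2451 at an unadjusted p under 0.05, and 0 with the GC and length trend removed, with 2258, over 14504 genes in place of 19201. Without single libraries they were 0 to 1. With voom they were 43 (6 higher), 776 (418 higher) and 23 (1 higher) without sedentary replicates 1, 2 and 3, and 69 (2 higher), 1027 (453 higher) and 41 (4 higher) without control replicates 1, 2 and 3. Septins passing voom were 1 with all libraries, 0 without sedentary replicate 3 or control replicate 3, and 1 without any other single library. The septin median of 0.09 was 0.13 at 1 FPKM, -0.027 as TPM and 0.011 with quantile normalization, and 0.028 to 0.144 without single libraries. With voom it was 0.030 without sedentary replicate 1 and 0.146 without sedentary replicate 3. Fewer genes are tested at 1 FPKM, where Sept11 drops out; for the other settings the cause was not tested. Same-numbered replicates did not deviate together, with correlations across genes of -0.07, -0.09 and -0.03 and no library closest to its own number. Such correlations cannot show whether animals were paired. With the replicate block 0 septins passed. Among the 10 septins, depth limits Sept8, with 730 reads in sedentary and 980 in control testes, and Sept11, with 684 and 814 reads in the same order, most.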
